A study of Mus musculus with 2 samples.

Results

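Lymphatic endothelial cells of the mouse ileum were split here by how much of their RNA came from the mitochondrial genome. A cell counted as lymphatic when it had at least 500 detected genes, at least 5 unique molecular identifiers (UMIs, one per captured RNA molecule) of Mmrn1, Lyve1, Reln and Prox1 together, and over 4 times as many of these as of the blood vessel genes Flt1, Cd34, Plvap and Esam. Its mitochondrial share is the percentage of its UMIs that came from the 13 protein-coding genes of mitochondrial DNA. The high side holds the 416 lymphatic cells at 6 to 15%, the low side the 338 cells at 4% or less, so that 754 of all 7328 cell barcodes belong to the comparison. It asks which nuclear transcripts take a smaller or a larger part of the remaining RNA in the high cells.

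The study sorted endothelial cells from the ileum of wild-type male C57Bl/6 mice of 8 weeks, by flow cytometry for CD31 and against EpCAM and CD45, with podoplanin (PDPN) separating lymphatic from blood endothelium, and made droplet libraries of 3' ends. There are 2 libraries of 1 group, WT_EC, with no treatment and no mutant. Library 1 holds 1026 barcodes and library 2 holds 6302. Nothing in the sample labels tells whether these are different mice or pools of mice, so p-values measure only the spread between these libraries, which may be technical.

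Mitochondrial transcripts encode core subunits of the respiratory chain and are made and kept inside the organelle, whereas the other subunits, the ribosomal proteins and nearly all other proteins are encoded in the nucleus and their messages are read in the cytosol. In droplet data the mitochondrial share is widely used to set aside damaged cells, because a cell whose membrane has leaked can lose cytosolic RNA and keep its mitochondria, but cells also differ in how many mitochondria they have. Lymphatic endothelium lines the lacteals and the collecting vessels of the gut wall, drains fluid, fat and immune cells, and is marked by the transcription factor PROX1, the hyaluronan receptor LYVE1 and the chemokine CCL21.

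The mitochondrial share chose the cells, so what it is made of is a description. In library 1 the 18 high cells had a median of 1524.5 non-mitochondrial UMIs, against 3719 in the 47 low cells. In library 2 the medians were 1398.5 in 398 high cells and 3376 in 291 low cells. Mitochondrial UMIs differed less, with means of 170 per cell on the high and 109 on the low side in library 1 and of 145 and 108 in library 2. The mean number of non-mitochondrial UMIs per cell on the high side was thus 0.493 and 0.442 times that on the low side, and the mean number of mitochondrial UMIs was 1.56 and 1.34 times. In lymphatic cells the high share therefore came with fewer UMIs of everything else more than with extra mitochondrial ones. For the most abundant mitochondrial message, mt-Co1, the first subunit of cytochrome oxidase, the mean per cell was 26.3 on the low and 40.6 on the high side of library 1, and 23.4 and 32.2 in library 2. Cells just inside and just outside the rule were close to each other: in library 2 the 62 cells at 6 to 6.5% had a median of 1879 non-mitochondrial UMIs and the 67 cells at 5.5 to 6%, outside the rule, 1851, while the 72 cells at 3.5 to 4% had 2738 and the 82 at 4 to 4.5% had 2578.5. Few cells lay near the marker limit: 13 lymphatic cells of library 2 had 5 or 6 marker UMIs, with a median of 1038 non-mitochondrial UMIs, and 7 cells with 3 or 4 marker UMIs, at a median of 1101, were not taken.

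**Figure D1:**
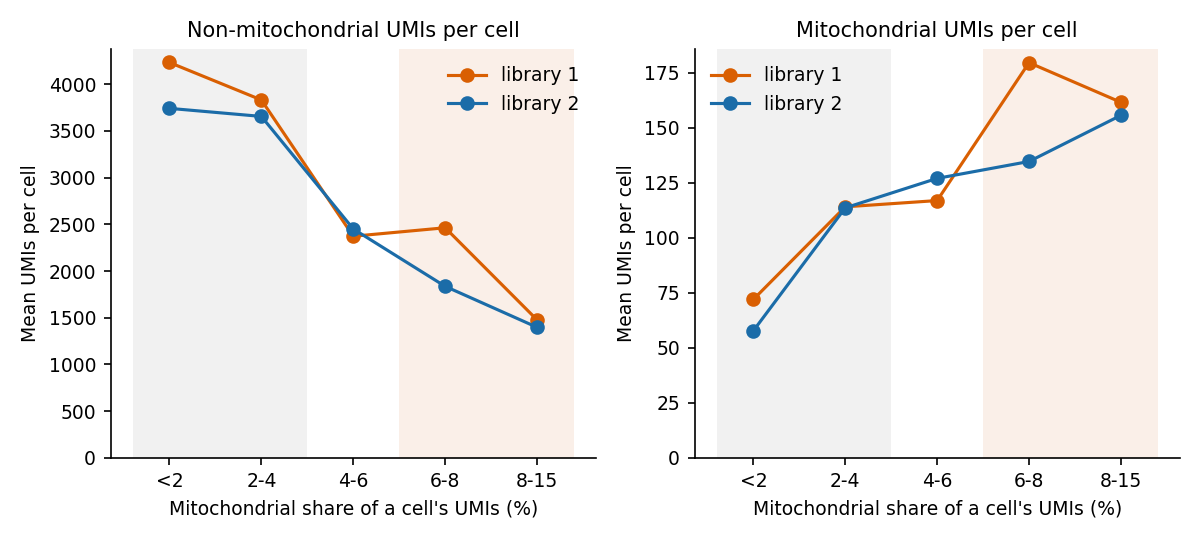
Mean non-mitochondrial (left) and mitochondrial (right) UMIs per lymphatic cell in 5 classes of mitochondrial share (x axis, percent), for library 1 (orange) and library 2 (blue). Grey shading marks the low side, orange shading the high side. In library 2 the non-mitochondrial mean goes from 3742 in cells under 2% to 1398 in cells of 8 to 15%, and the mitochondrial mean from 57.8 to 156.

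The 4 marker genes, whose presence the rule fixes, made up 1.09% of non-mitochondrial UMIs on the low and 0.995% on the high side of library 1, and 1.37% and 1.54% in library 2. The label was checked on 25 genes known from lymphatic endothelium that the rule did not use. These genes (among them Pdpn, Flt4, Ccl21a, Maf and Nrp2) took 2.98% and 2.42% in library 1 and 2.89% and 2.74% in library 2, against 0.238 to 0.278% in the blood endothelial cells selected by the mirrored rule. The 15 genes of a blood endothelial list took 0.411% (low) and 0.267% (high) in library 1 and 0.386% and 0.452% in library 2, against 0.966 to 2.34% in blood endothelial cells. Markers of T cells, epithelium, erythrocytes, fibroblasts, pericytes and glia were at or near 0 on both sides: no list exceeded 0.00575% in any sum, and all were at 0 on the high side of library 1. On the low side of library 2, markers of B and plasma cells, at 0.533%, and of myeloid cells, at 0.0141%, came mostly from 1 barcode each.

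Of these, 4 lymphatic barcodes held 10 or more UMIs of other cell types, 3 of them on the low side, and stand apart from the rest. A low-side cell of library 2 with 11427 UMIs held 2642 of Igkc, 2344 of Igha and 596 of Jchain, the antibody chains of a plasma cell, beside 6 lymphatic marker UMIs. Another low-side cell of library 2, with 17717 UMIs, held 359 of Cd74, 122 of H2-Aa, 48 of C1qb and 43 of C1qa, genes of macrophages and other antigen-presenting cells, beside 92 lymphatic marker UMIs. A low-side cell of library 1 had 13 Cd74 and 10 C1qb UMIs, and the cell on the high side, in library 2, had 26 UMIs of other cell types among 1925. No doublet caller was used, and the values of genes that these barcodes carry are given with and without them.

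The level of a gene is given as CPM, its UMIs per 1000000 non-mitochondrial UMIs, summed over the cells of a side within a library. The 4 sums hold 182521 non-mitochondrial UMIs (low) and 34482 (high) in library 1, and 1066404 and 643990 in library 2, so that 1 UMI on the high side of library 1 is worth 29.0 CPM and low genes there are poorly measured. Because the level of a gene is a share, it says what part of the remaining RNA the gene takes, and fewer molecules of one gene cannot be told apart from more of another. With 2 pairs of sums the smallest exact permutation p is 0.5, so tests rest on edgeR's quasi-likelihood fit over all genes, which borrows the spread from other genes.

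In that fit, with the library as a block, 5 of 6542 nuclear genes passed an adjusted p of 0.05, which is 0.0764%, and all 5 were lower on the high side. At an unadjusted p under 0.05 there were 118 genes higher and 167 lower. The genes were Igha, Igkc, Jchain, Cd74 and Nts. The first 3 encode antibody chains and the fourth the invariant chain of class II antigen presentation. Nts encodes the peptide neurotensin, which has been used as a marker of a subset of lymphatic endothelium, and, like Jchain, it passed outside the rule for named genes.

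Igha was measured at 10.96 CPM (low) and 0 (high) in library 1 and at 2231 and 63.7 CPM in library 2, a fitted log2 difference of -5.13 (SE 0.35, edgeR adjusted p = 1.59e-07). Igkc was at 5.48 and 0 CPM in library 1 and 2513 and 96.3 CPM in library 2, with a fitted log2 difference of -4.70 (SE 0.33, edgeR adjusted p = 1.59e-07). The low side of library 2 alone was far above the other 3 sums for both genes. Jchain was at 570.1 CPM there, at 28.0 CPM on its high side and at 0 in library 1, and without the 4 barcodes its 12 remaining UMIs on the low and 18 on the high side of library 2 were too few for a test. Cd74 was at 197.2 (low) and 58.0 CPM (high) in library 1 and at 498.9 and 82.3 CPM in library 2, lower on the high side of each, with a fitted log2 difference of -2.52 (SE 0.33, edgeR adjusted p = 0.000918). Without the 4 barcodes the fitted log2 differences were 0.85 for Igha and 1.35 for Igkc, in the other direction, and -0.96 for Cd74, each with an edgeR adjusted p of 0.9996.

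Nts was at 164.4 CPM on the low and 87.0 on the high side of library 1, and at 197.9 and 41.9 CPM in library 2, so that both high sums lay under both low sums. The fitted log2 difference was -2.05 (SE 0.37, edgeR adjusted p = 0.0497). The counts behind it are small and uneven: 30 and 3 UMIs in library 1 and 211 and 27 in library 2, of which 1 low cell of library 1 gave 19 and 1 low cell of library 2 gave 50, while 1 cell held all 3 on the high side of library 1. In library 2, 49 of 291 low cells (16.8%) and 14 of 398 high cells (3.52%) held any Nts UMI, at very different depths. Nts lies on chromosome 10 (102481756 to 102490486, minus strand, GRCm38). It held none of the 4 barcodes' UMIs, and its log2 difference without them was -2.09, but its edgeR adjusted p was then 0.646. In all, 0 of 6488 genes passed edgeR's test without the 4 barcodes, with 115 genes higher and 157 lower at an unadjusted p under 0.05, and 0 passed DESeq2, with 2 and 5. With TMM scaling 2 passed, Nts as lower and Slco2a1, a prostaglandin transporter, as higher. Slco2a1 was at 27.4 (low) and 203.0 CPM (high) in library 1 and at 45.0 and 139.8 CPM in library 2, and with all cells and no scaling its fitted log2 difference was 1.84 (SE 0.38, edgeR adjusted p = 0.126). That rested on 5 and 7 UMIs in library 1 and on 48 and 90 in library 2, where 12.4% of low and 11.8% of high cells held any. Blood endothelial cells had far more Slco2a1, at 1353 (low) and 2952 CPM (high) in library 1 and at 1449 and 1935 in library 2. It was higher on their high side too (0.76, edgeR adjusted p = 0.00214). Without the library block the test on all cells gave 2 genes higher and 3 lower.

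Most differences of single genes were not resolved. Of the 6542 genes, 97.0% had a fitted log2 difference within 1 of 0. The median absolute difference was 0.27 and the median SE 0.42, so a typical difference was smaller than its error. Across all 6542 genes the log2 differences of the 2 libraries had a Pearson r of 0.116 and 54.5% had the same sign, and across the 842 genes of at least 200 CPM r was 0.326 and 62.9% had the same sign, which describes these libraries across genes that are not independent replicates. Groups of genes are therefore given by how many members were lower or higher in both libraries, beside the background: 26.7% of all genes tested were lower and 27.8% higher in both, and 32.4% and 30.5% of the genes of at least 200 CPM. These shares carry no test.

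The cytosolic ribosomal proteins, the protein part of the ribosome that is encoded by short and abundant messages, had the most one-sided values of the 24 pathway lists. None of 82 tested passed edgeR's adjusted threshold. At an unadjusted edgeR p under 0.05, 38 were lower, against 167 of all 6542 genes and 77 of the 842 of at least 200 CPM. In both libraries 67 were lower on the high side and 3 were higher, with a median fitted log2 difference of -0.45 (range -1.43 to 0.40). Together they made up 10.4% of non-mitochondrial UMIs on the low and 7.55% on the high side of library 1 (exact 95% binomial interval of the latter 7.27 to 7.83%, counting error only), and 10.8% and 8.50% in library 2 (8.43 to 8.57%). Per cell the median share was 10.5% and 5.81% in library 1 and 10.4% and 7.89% in library 2, so the median cell was lower as well. In library 2 the share went down over all 5 classes of mitochondrial share, from 11.4% in cells under 2% to 7.81% in cells of 8 to 15%. In library 1 it was 9.95% in the 8 cells of 6 to 8% and 4.33% in the 10 cells of 8 to 15%, so that its lower value rested on the latter.

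Examples show the range within the group. Rpl10, of the large subunit, was at 799.9 CPM (low) and 435.0 (high) in library 1 and at 894.6 and 391.3 in library 2, a fitted log2 difference of -1.10 (SE 0.24, edgeR adjusted p = 0.180). Rpl21 differed by -1.14 and Rpl11 by -1.17. Rplp1, of the ribosomal stalk and the member with the highest CPM, differed by only -0.15 and Rpl37a by 0.01 in library 2 against -0.85 in library 1. Many ribosomal protein genes have near-identical processed copies in the genome, and the sources used here do not give how reads on them were assigned, so single members are uncertain.

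Nuclear-encoded subunits of the respiratory chain, the partners of the mitochondrially encoded ones, leaned the same way. Of 76 tested none passed edgeR's test, and 11 were lower at an unadjusted p under 0.05, against 167 of all 6542 genes. In both libraries 52 were lower on the high side and 3 higher, with a median of -0.31. They took 1.55% (low) and 0.954% (high) of non-mitochondrial UMIs in library 1 and 1.72% and 1.45% in library 2. Per cell, the high side held 18.3 and 23.5 UMIs of these genes in libraries 1 and 2 and the low side 60.0 and 63.1, a count that is smaller for most genes since the high cells held fewer non-mitochondrial UMIs. Ndufa7, a subunit of complex I, was at 246.5 and 116.0 CPM in library 1 and 253.2 and 144.4 in library 2, at a fitted log2 difference of -0.86, whereas Cox4i1 of cytochrome oxidase differed by -1.02 in library 1 and 0.01 in library 2. Proteins of the mitochondrial ribosome had a median of -0.15 (29 of 60 lower in both, 8 higher), and the import and upkeep genes one of -0.04 (10 of 29 lower, 6 higher). Translation factors had a median of -0.27 with 12 of 19 lower in both.

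On the other side stood genes of splicing and of nuclear speckles, the bodies in which splicing factors gather. Of 27 tested, 19 were higher on the high side in both libraries and 2 lower, with a median of 0.30. None passed edgeR's test, and 3 were higher at an unadjusted p under 0.05, against 118 of all 6542 genes. Their share was 0.829% (low) and 1.29% (high) in library 1 and 0.847% and 0.936% in library 2, a much smaller step in library 2. Hnrnpa2b1, which packages and splices nuclear RNA, was at 515.0 and 1218 CPM in library 1 and at 510.1 and 646.0 in library 2 (fitted log2 difference 0.68, SE 0.25, edgeR adjusted p = 0.876). Snrnp70, of the U1 splicing particle, outside the list and chosen after its values were seen, was at 230.1 and 783.0 CPM and at 259.8 and 428.6 CPM.

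Gm42418 is an annotated noncoding gene on chromosome 17 (39846958 to 39848788, plus strand, GRCm38) that overlaps ribosomal RNA sequence. It was at 48433 CPM on the low and 87582 on the high side of library 1 and at 57314 and 83467 CPM in library 2. Its level was higher on the high side of each library, with a fitted log2 difference of 0.70 (SE 0.22, edgeR adjusted p = 0.655). In library 1 that difference came from the cells of 8 to 15%, where it took 14.8% of non-mitochondrial UMIs, against 4.21% in the cells of 6 to 8%. Of the 5 tested genes with such an overlap, 3 were higher in both libraries and 1 lower, with a median of 0.70. Gm26917 and Gm15564 had fitted log2 differences of 0.73 and 0.77, none of the 5 passing, while AY036118 was at 520.5 and 145.0 CPM in library 1 and 1169 and 664.6 in library 2, and Lars2, a mitochondrial aminoacyl-tRNA synthetase, differed by -0.01.

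**Figure D2:**
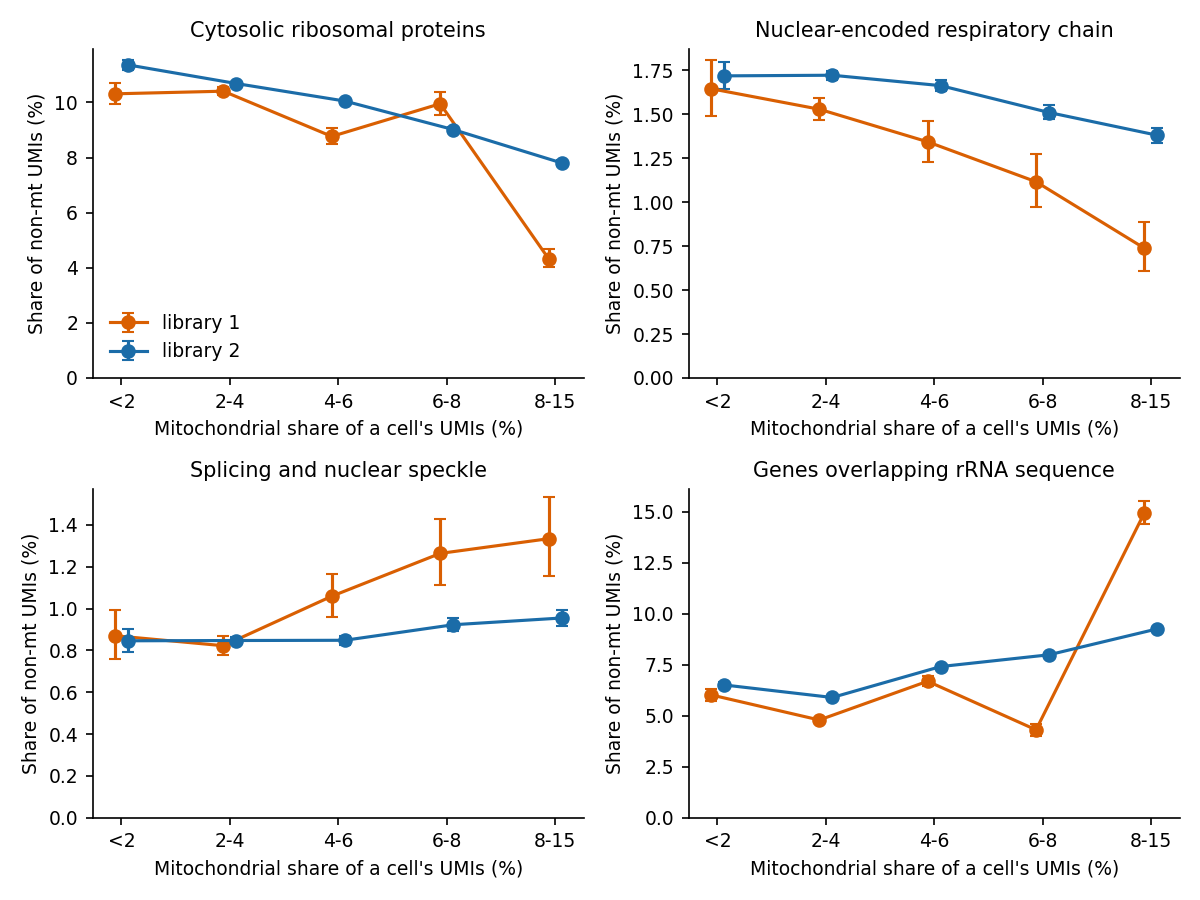
Share of non-mitochondrial UMIs (y axis, percent) taken by 4 gene lists in 5 classes of mitochondrial share (x axis, percent), for library 1 (orange) and library 2 (blue), with exact 95% binomial intervals that cover counting error only. Ribosomal proteins of library 2 go from 11.4% to 7.81%, and genes overlapping ribosomal RNA of library 1 reach 14.9% in the last class.

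The lymphatic and the endothelial list had medians close to that of all genes, 0.03, with members spread to both sides. Lymphatic genes outside the rule had a median of 0.08, from -2.05 for Nts to 0.80 (8 of 24 higher in both libraries, 7 lower, and Nts the 1 that passed), and genes of junctions and membrane receptors one of 0.03, from -0.85 to 0.60 (7 of 19 higher, 6 lower). Timp3, a protease inhibitor of the vessel wall, was at 4904 and 5191 CPM in library 1 and 4872 and 5472 in library 2. Cav1, the coat protein of caveolae, was at 1381 and 1363 and at 1347 and 1356 CPM, so that its sums overlapped closely. Ccl21a, the chemokine that draws dendritic cells into lymphatics, was at 7922 (low) and 3306 CPM (high) in library 1 and at 7429 and 4668 in library 2, lower on the high side of each, a fitted log2 difference of -0.94 (SE 0.21, edgeR adjusted p = 0.201). In library 2 its share decreased over the 5 classes, from 1.11% to 0.423%. Ccl21a has near-identical copies in the mouse genome, and reads may be divided among them. Among cytoskeletal genes, Tmsb4x, which binds actin monomers, was at 9144 and 4031 CPM in library 1 and at 9540 and 8020 in library 2, and Actb at 3961 and 3654 and at 4115 and 3862. Ferritin heavy chain, Fth1, which stores iron, was at 5835 and 3277 CPM and at 7084 and 5520 CPM (fitted log2 difference -0.57, edgeR adjusted p = 0.876).

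Stress genes did not follow a single direction across all cells. Genes of the immediate early response, which are switched on within minutes of a stimulus such as tissue dissociation, had medians of 0.26 in library 1 and -0.24 in library 2, and heat shock genes of 0.28 and -0.47. Apoptosis and p53 genes had a median of -0.04. Malat1, a nuclear noncoding RNA on chromosome 19 (5795690 to 5802672, minus strand, GRCm38), was at 11812 and 22272 CPM on the low and high sides of library 1 but at 12463 and 9112 CPM in library 2.

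**Figure D3:**
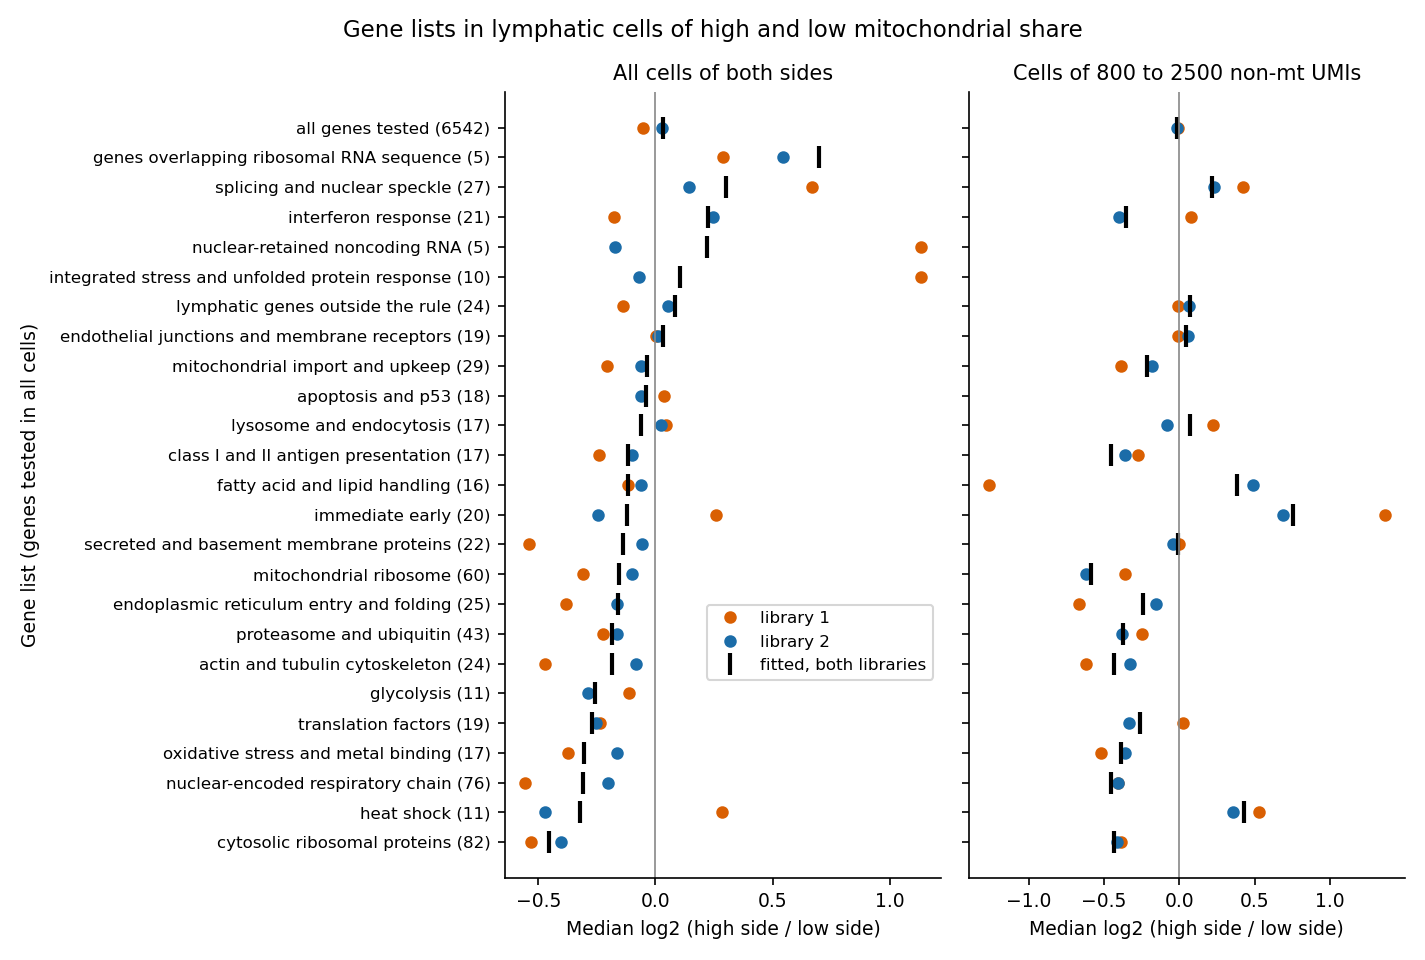
Median log2 ratio of the high over the low side for the genes of each list (rows, with the number tested in all cells), for library 1 (orange), library 2 (blue) and the fit over both (black bar). The left panel uses all cells and the right panel cells of 800 to 2500 non-mitochondrial UMIs, and lists with under 5 tested genes are left out. Ribosomal proteins lie left of 0 in both panels, while immediate early and heat shock genes are split between the libraries on the left and lie right of 0 on the right.

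Because the sides differ in depth, gene shares were also compared between deeper and shallower cells. Within the low side, Malat1 took 1.38% of non-mitochondrial UMIs in the 206 cells of library 2 above 2500 UMIs but 0.419% in the 84 cells of 800 to 2500, and 1.22% and 0.837% in library 1. Within the high side the order was weaker or opposite, at 1.01% and 0.882% in library 2 and 1.77% and 2.56% in library 1. Immediate early genes behaved alike on the low side, with 0.977% in the deeper and 0.521% in the shallower cells of library 2 and 0.793% and 0.419% in library 1. On the high side they took 0.718% and 0.821% in library 2, and 1.24% in 4 deeper and 0.518% in the shallower cells of library 1. Shallow cells of low mitochondrial share thus held a smaller share of these transcripts than deeper ones. For immediate early genes the shallow high cells of library 1 did as well. Ribosomal proteins took 10.7% and 10.9% in the deeper and shallower low cells of library 2 and 10.5% and 8.52% in library 1.

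When only cells of 800 to 2500 non-mitochondrial UMIs were compared (14 high and 9 low cells of library 1, 333 and 84 of library 2), 25 of 1842 genes passed edgeR's test, which is 1.36%, 9 of them higher (0.489%) and 16 lower (0.869%) on the high side. The match is partial, with means of 1419 (high) and 1645 (low) non-mitochondrial UMIs per cell in library 1 and 1451 and 1783 in library 2. With DESeq2, 2 genes passed, Malat1 and Gm42418, both higher, and with no library block edgeR called none, with 20 genes higher and 42 lower at an unadjusted p under 0.05. In these cells the mitochondrial UMIs per cell on the high side were 3.18 and 2.43 times those on the low side, a larger step than over all cells. The split by mitochondrial share and the matching of the other UMIs largely fix that step, so it is a description.

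The genes past the threshold as higher at matched depth were the nuclear RNAs Malat1 and Neat1, the immediate early genes Fosb, Junb and Zfp36, the inducible heat shock genes Hspa1a and Hspa1b, the stress phosphatase regulator Ppp1r15a, and Sbno2. They were named for passing this test, after their values were seen. Ppp1r15a had 3 UMIs on each side of library 1, at 202.6 (low) and 151.0 CPM (high), the opposite direction to library 2, at 100.2 and 343.6 CPM. Malat1 was at 8375 CPM (low) and 25616 (high) in library 1 and at 4193 and 8819 CPM in library 2, a fitted log2 difference of 1.30 (SE 0.14, edgeR adjusted p = 3.41e-16). Per cell, 17 of 84 low cells of library 2 had no Malat1 UMI, against 17 of 333 high cells. Junb, a subunit of the AP-1 transcription factor, was at 202.6 and 855.6 CPM in library 1 and 467.4 and 1097 CPM in library 2 (1.32, SE 0.28, edgeR adjusted p = 0.00107). In library 1 this rested on 3 and 17 UMIs, and 1 of 14 high cells gave 9 of the 17. Both high sums of Malat1 and of Junb lay above both low sums.

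Hspa1b, which refolds damaged proteins, was at 135.1 and 402.6 CPM in library 1 and at 180.3 and 610.6 CPM in library 2 (1.74, SE 0.40, edgeR adjusted p = 0.00301). All 8 of its UMIs on the high side of library 1 came from 1 cell, as did 7 of the 8 of Hspa1a. Fosb, another AP-1 subunit, rested on 0 and 5 UMIs in library 1, all 5 from 1 of 14 cells, and on 6 and 110 in library 2. Zfp36 and Sbno2 also had 0 and 5 UMIs in library 1. Neat1, the scaffold of nuclear paraspeckles, rested on 3 and 30 and on 72 and 406 UMIs (1.10, SE 0.29, edgeR adjusted p = 0.0156). As groups, 10 of 18 immediate early genes were higher in both libraries and 1 lower (3 passed, median 0.75), and 4 of 8 heat shock genes were higher and 2 lower (2 passed, median 0.43), against 25.8% higher and 31.5% lower of all 1842 genes. The summed immediate early share was 0.419% (low) and 0.518% (high) in library 1 and 0.521% and 0.821% in library 2. That of heat shock genes was 0.378% and 0.433% in library 1 and 0.388% and 0.510% in library 2. In library 1 these shares rested on 62 and 103 and on 56 and 86 UMIs. Their exact binomial intervals overlapped there and did not overlap in library 2. These intervals cover counting error only and leave out the spread between cells. They therefore cannot show whether the summed shares separate the sides in either library. Hspa1a and Hspa1b are near-identical, and reads between them are uncertain.

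The genes that fell at matched depth included 6 ribosomal proteins, among them Rpl9, Rps12, Rps27, Rps29 and Rps21, and 59 of 80 tested were lower in both libraries with none higher (median -0.44). Of all 1842 genes, 0.869% passed as lower and 31.5% were lower in both libraries. Tmsb4x was at 9591 and 4076 CPM in library 1 and at 11966 and 7911 CPM in library 2 (-0.82, SE 0.15, edgeR adjusted p = 2.57e-05). Gng11, a subunit of heterotrimeric G proteins found in endothelium, was at 4930 and 2114 CPM and at 3846 and 2287 CPM (-0.88, SE 0.16, edgeR adjusted p = 3.56e-05). For both, the high sums lay under both low sums.

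Fth1 (-0.56), Aqp1, a water channel of the blood endothelial list (-0.74), Ccl21a (-0.55), and the mitochondrial proteins Ndufa7 (-1.20), Cox14 (-1.42) and Mrpl21 (-1.65) also passed, as did Gpx3 and Rab28. Cox14 and Mrpl21 were at 2 UMIs or fewer in each sum of library 1. Ndufa7 rested there on 6 (low) and 1 UMI (high), and Rab28 on 3 and 1. Of the respiratory chain genes, 35 of 53 were lower in both libraries and 3 higher (1 passed, median -0.45). Ribosomal and respiratory chain medians had the sign they had over all cells, while the immediate early and heat shock medians over all cells were -0.12 and -0.32. The difference between matched and all cells was not tested.

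**Figure D4:**
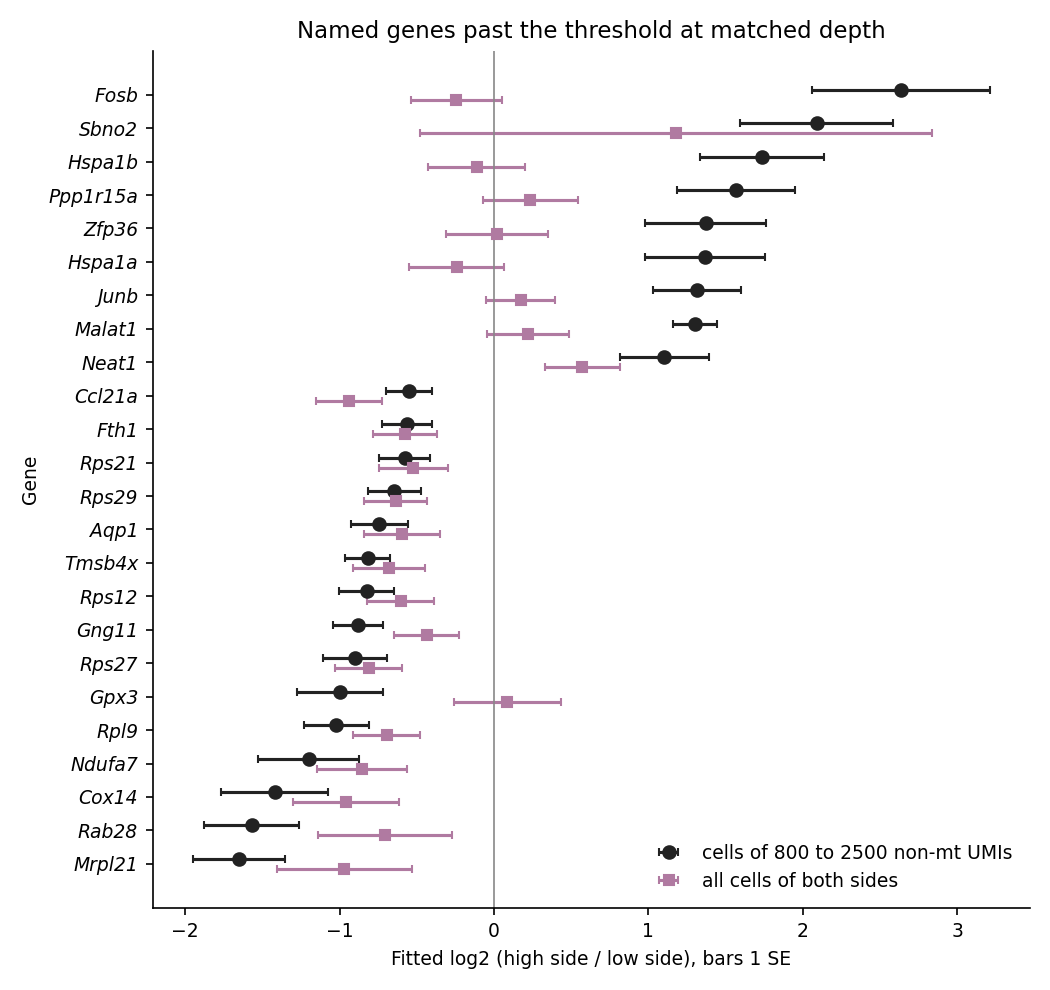
Fitted log2 ratio of the high over the low side, with 1 SE, for the genes named in the text that passed at matched depth: black circles for cells of 800 to 2500 non-mitochondrial UMIs, purple squares for all cells. Malat1 lies at 1.30 and 0.22, and Tmsb4x at -0.82 and -0.68.

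The differences also went with the length of the message. Grouped by the length of the principal transcript in the GENCODE annotation (release M21), 243 coding genes of up to 800 bases had a median fitted log2 difference of -0.26, 782 of 800 to 1500 bases one of -0.13, 1375 of 1500 to 2500 bases one of 0.00, and the 945 longest, over 6000 bases, one of 0.10. Of the shortest class 56.0% were lower in both libraries, and of the longest 20.4%. The order from short to long was the same in library 1, from -0.50 to 0.06, and in library 2, from -0.20 to 0.07, except that the 3 longest classes hardly differed. In library 1 these 3 had the identical median of 0.06, at median levels of 58.1, 57.6 and 71.3 CPM. With 1 UMI on its high side worth 29.0 CPM, that value reflects single counts. The order was present without the ribosomal proteins, at -0.22 and 0.10 for the shortest and longest class, and at matched depth, at -0.42 and 0.19. Without ribosomal proteins and at 100 CPM or more, these classes had -0.47 and 0.08 in library 1, and -0.17 and 0.09 in library 2. These are descriptions across genes, with no test.

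**Figure D5:**
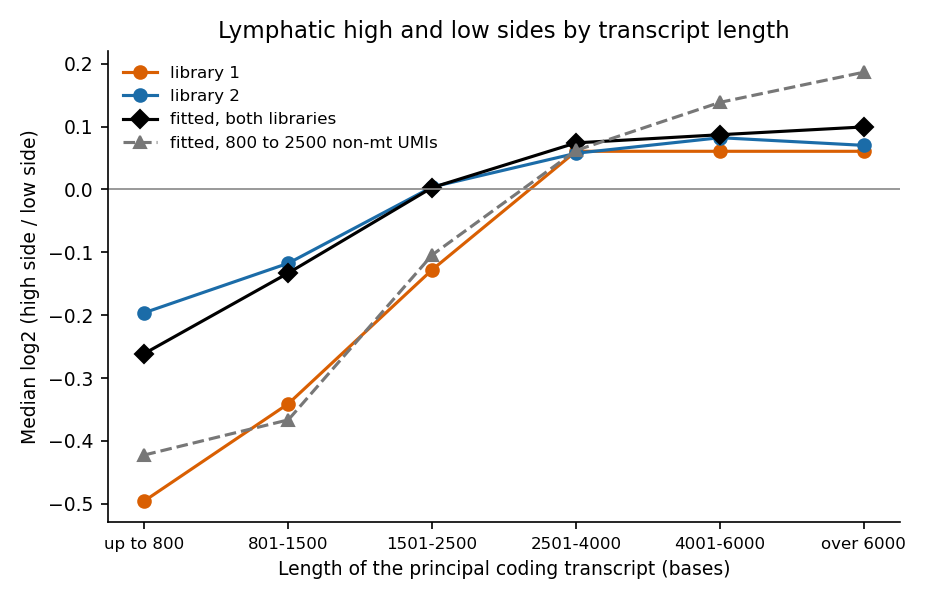
Median log2 ratio of the high over the low side (y axis) for coding genes in 6 classes of transcript length (x axis, bases), for library 1 (orange), library 2 (blue), the fit over both (black diamonds) and the fit at matched depth (grey triangles). The fitted medians run from -0.26 in the shortest to 0.10 in the longest class.

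The same split of the blood endothelial cells (407 high and 4486 low cells) gave a different picture. High cells made up 38.9% of lymphatic and 7.37% of blood endothelial cells in library 2, and 21.95% and 6.45% in library 1. The mean number of mitochondrial UMIs per blood high cell was 2.09 and 2.54 times that of low cells in libraries 1 and 2. For non-mitochondrial UMIs it was 0.530 and 0.715 times. In blood cells 426 of 10189 genes passed (4.18%), 315 higher (3.09%) and 111 lower (1.09%), or 145 and 26 with TMM scaling. Lymphatic genes outside the rule had a median of 1.36 there, with 5 of 13 past the threshold as higher, while their summed share was 0.251% (low) and 0.258% (high) in library 1 and 0.238% and 0.278% in library 2. The blood endothelial list had a median of -1.09, with 6 of 8 past the threshold as lower. On the high side of library 2, epithelial markers took 0.675% and pericyte and smooth muscle markers 0.185%, against 0.00116% and 0.0086% on the low side. All markers of non-endothelial cell types together took 0.975% there, and 0.0204% without 18 barcodes that held 10 or more such UMIs. Those barcodes were picked by the same markers, which partly fixes the drop. Ribosomal proteins there had a median of -0.24 with 2 of 82 past the threshold, and the shortest and longest transcripts medians of -0.16 and 0.12, so these patterns are not shown to be particular to lymphatic cells.

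That test of the difference, an interaction term over 8 sums, was passed by 95 of 9448 genes (1.01%), 9 with a higher (0.0953%) and 86 with a lower (0.91%) difference in lymphatic cells. Of the 86, 67 were genes with a higher level in lymphatic than in blood cells, against 54.3% of all genes tested. Of the 95, 68 could be tested in the blood split alone and 61 passed there, 53 of them as higher on the high side of blood cells, while 2 passed in the lymphatic split. Among blood high cells of library 2, 18 barcodes with 10 or more UMIs of other cell types held 20.4% of the UMIs, and without such barcodes in either class the test of the difference called 5 genes higher and 31 lower.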

How the data were processed

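The UMI counts per gene and cell were deposited by the authors as filtered matrices of 31053 genes, whole numbers with no normalization. The libraries used Chromium 3' chemistry per the labels' protocols, and bcl2fastq 2.2, Cell Ranger 3.1.0 and the mm10 build per the submitters' processing notes.

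Cells were selected by the rule in the text, with no doublet caller. UMIs were summed per library and side and tested with edgeR 4.0.16 (R 4.3.3): library size set to non-mitochondrial UMIs, no further scaling, filterByExpr with min.count 10, robust quasi-likelihood fit, Benjamini-Hochberg adjustment over all genes tested. The mitochondrial genes and the genes of the rule were not tested. Both sides of a library are the same sample, so the library was a block, which leaves 1 residual degree of freedom. Differences of one library are of log2(CPM + 10). DESeq2 1.42.0, other scalings, filters, depths and cell limits were alternatives, and the fits were tested on simulated data. Lengths were matched by Ensembl ID. The libraries share 2 barcodes, neither of them lymphatic.

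Named genes were passing genes of at least 200 CPM with the same sign in both libraries (up to 12 each way), the 3 members of each of 33 lists with the highest CPM, and 5 genes of the difference test. Chosen after their values were seen were Jchain, Nts, Slco2a1, Rpl10, Rpl21, Rpl11, Snrnp70, Ndufa7, Iigp1, Gbp4, Gbp2, Gm26917, Gm15564 and the genes passing at matched depth, of which 1 is not reported here by name. The cells, lists and tests were chosen with earlier results of these data known.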

Additional observations from a re-analysis of the deposited data

Results flagged for a closer look

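For 5 genes the difference between the high and the low side was tested to differ between lymphatic and blood endothelial cells, by edgeR's interaction term. Each value is the log2 difference in lymphatic cells minus that in blood endothelial cells. Cd74 had -4.69 (SE 0.41, edgeR adjusted p = 8.17e-26): in blood cells it was higher on the high side of both libraries, at 67.0 and 324.1 CPM in library 1 and 54.5 and 230.7 in library 2. In lymphatic cells 1 barcode held 359 of its 532 UMIs on the low side of library 2. Without barcodes of 10 or more UMIs of other cell types in either class, Cd74 had -2.95 (SE 0.41, edgeR adjusted p = 2.34e-09), of which -0.96 in lymphatic and 1.99 in blood cells. Pdpn had -3.14 (SE 0.65, edgeR adjusted p = 0.000369), with blood cells at 0 and 0 CPM in library 1 and at 1.60 and 12.9 in library 2, while lymphatic cells differed by -0.18 and -0.17. Pdpn was too low in blood cells to be tested there alone, so its value turns on near-zero counts of blood cells, and without those barcodes it had -2.85 (edgeR adjusted p = 0.561). Ifi27l2a had -2.91 (edgeR adjusted p = 2.36e-10), with blood cells at 18.8 and 35.0 CPM and at 22.97 and 99.5 CPM, and without those barcodes it had -2.02 (edgeR adjusted p = 0.00131). Tgfbi had -2.89 (edgeR adjusted p = 4.77e-09), with blood cells at 26.2 and 227.7 CPM and at 27.3 and 72.9 CPM, and without those barcodes it had -2.87 (edgeR adjusted p = 2.34e-09). Igha had -2.87 (edgeR adjusted p = 2.47e-05), and 1 lymphatic barcode held 2344 of its 2379 UMIs on the low side of library 2. Without those barcodes Igha had -0.02.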

How the results depend on the processing

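The lymphatic test gave 0 genes higher and 5 lower. With TMM scaling there were 1 higher and 10 lower, with DESeq2's size factors 1 and 13, with DESeq2 0 and 1 (2 and 8 at an unadjusted p under 0.05), with no filter on low counts 2 and 14, and with no replicate block (the library not paired) 2 and 3. Cells of 800 to 2500 non-mitochondrial UMIs gave 9 and 16, with TMM scaling 10 and 15, with DESeq2 2 and 0, and with no replicate block 0 and 0. Cells thinned to 600 UMIs gave 0 and 1. Other limits gave 2 and 6 (high side 8 to 15%), 6 and 18 (6 to 25%), 0 and 4 (low side at most 3%), 2 and 13 (at least 10 marker UMIs), 3 and 15 (markers at least 0.5% of UMIs) and 1 and 6 (without the 5% of cells with most UMIs). Without the 4 barcodes with other cell types' RNA there were 0 and 0, also with DESeq2, and 1 and 1 with TMM scaling; this and the settings that combine matched depth with another choice were chosen after seeing the data. The median of all genes was 0.03, and -0.08 with DESeq2. The cause of these changes was not tested, apart from the cells left out.

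Igha reversed to 0.87 with at least 10 marker UMIs, 0.92 with the marker share, 0.86 without the deepest 5%, and 0.85, 0.43 (DESeq2) and 0.83 (TMM) without the 4 barcodes. Igkc reversed to 1.47, 1.37, 1.38, 1.35, 1.10 and 1.34 in the same settings. Nts was lower in all 15 other tests, at -2.97 to -1.83, and passed in 10. The median of ribosomal proteins was below 0 in 21 of 21 settings, single libraries included (-0.84 to -0.31), that of the respiratory chain likewise (-0.56 to -0.20), and that of splicing genes above 0 (0.14 to 0.67). The immediate early median was below 0 in 14 of 21 settings (-0.24 to 0.79) and the heat shock one in 16 of 21 (-0.50 to 0.48).

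In blood cells the counts of 315 higher and 111 lower became 145 and 26 with TMM scaling, 45 and 12 with DESeq2, 120 and 88 at 800 to 2500 UMIs, 19 and 1 with no replicate block, and 155 and 82 without the other barcodes. The test of the difference gave 9 and 86, and 5 and 83, 0 and 1, 5 and 5, and 5 and 31 in the same order without the block setting, since its fit always holds the libraries. One library alone leaves no residual degrees of freedom, so single libraries are values only. Depth limits most of all the high side of library 1, at 34482 UMIs from 18 cells.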

Other observations

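Lymphatic cells outside both sides lay between or beyond them. The 301 cells of library 2 at 4 to 6% had 2451 non-mitochondrial UMIs per cell, a ribosomal protein share of 10.1% and a splicing gene share of 0.848%, and the 16 of library 1 had 2373 UMIs, 8.77% and 1.06%. Above 15% there were 32 cells in library 2, with a median of 878 non-mitochondrial and 218 mitochondrial UMIs, and 1 in library 1.

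The mitochondrial messages took similar proportions on both sides, as a description of the genes that define the split. Of mitochondrial UMIs, mt-Co1 took 24.2% (low) and 23.9% (high) in library 1 and 21.6% and 22.2% in library 2, mt-Atp6 took 17.2% and 18.6%, and 19.9% and 18.3%, and mt-Co3 took 14.4% and 14.9%, and 14.2% and 15.6%. The 4 lymphatic genes of the rule differed little in level: Prox1 was at 832.8 and 957.0 CPM in library 1 and 590.8 and 670.8 in library 2, and Lyve1, the hyaluronan receptor, at 3923 and 3248 and at 3186 and 2964. Mmrn1, a secreted multimerin, differed between the libraries, at 3715 and 3335 CPM in library 1 and 7900 and 9516 in library 2.

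Of 21 interferon response genes tested over all cells, 9 were higher in both libraries and 6 lower. Their summed share was 0.959% (low) and 0.850% (high) in library 1 and 1.14% and 1.10% in library 2. The 3 members with the highest CPM, Ifitm3, Ly6e and Bst2, were lower in both libraries. Their fitted log2 differences were -0.67, -0.31 and -0.10. Iigp1, an interferon-induced GTPase, was at 361.6 and 1102 CPM in library 1 and at 534.5 and 847.8 in library 2 (fitted log2 difference 0.9998, edgeR adjusted p = 0.336), and Gbp4 at 235.6 and 667.0 and at 258.8 and 414.6 (0.94, edgeR adjusted p = 0.529), and neither passed, while Gbp2 had a fitted log2 difference of 0.22. The interferon list as a whole had a median of 0.22 over all cells and of -0.35 at matched depth, where Iigp1 was at 0.25. Iigp1, Gbp4 and Gbp2 were chosen after their values were seen.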
